A study of Mus musculus and Homo sapiens with 22 samples.

Results

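The very long introns of protein-coding genes were taken from the authors' deposited table of introns in HEK293 biosensor cells at 96 h, with and without tau aggregates. An intron was a member if its end minus its start was at least 20000 bases, its gene was typed protein-coding and its deposited mean normalized count (baseMean, over the 6 libraries of the table) was at least 36. The rule found 7954 introns in 3457 genes, among 172099 introns in the authors' deposited table and 82091 with an adjusted p. A further 2330 protein-coding introns of this length lay below the count floor. The members were thus chosen by a level that the same comparison measured, so all 96 h values below are a description.

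An intron is copied into the primary transcript and is then cut out by the spliceosome, mostly while the polymerase is still moving. Reads from inside an intron therefore come from unspliced or partly spliced RNA, from excised introns not yet degraded, or from other transcription across the region. Very long introns are common in genes of the nervous system and of cell adhesion, and they are transcribed for far longer than short ones. Nuclear speckles, the bodies named in the title of the series, store splicing factors, and the 96 h libraries address whether RNA processing differs in cells that hold aggregates.

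The 96 h cells were 3 libraries given 200 ug of clarified brain homogenate from P301S tau mice with lipofectamine, and 3 mock transfected libraries without aggregates. Both groups are HEK293, a human embryonic kidney line, and all overexpress the P301S repeat domain of tau as CFP and YFP fusions, the reporter of the biosensor line. At 24 h, after the same amount of homogenate, 2 libraries came from tau aggregates that were centrifuged and sorted as fluorescent particles, and 2 from total RNA of the cells. One cell line that makes a tau fragment from transgenes stands for all groups. The labels call the cells without aggregates mock transfected, while the protocol also names WT homogenate, so whether they received brain material is not settled. The authors' deposited table holds no value per library, so the depth at 96 h is unknown, and in bulk RNA fewer cells of a kind and less RNA per cell cannot be told apart. At 24 h, 1.19 M and 0.884 M reads fell in genes in the aggregate libraries, against 13.8 M and 13.9 M in total RNA. The 8 HEK293 markers were all detected at 24 h, with a summed level of 182 and 149 FPKM in sorted aggregates, against 283 and 273 FPKM in total RNA. Most of it came from VIM (106 and 91.4 FPKM, against 197 and 190 FPKM). NEFL, NEFM, INA and KRT8 were lower in sorted aggregates too, while KRT18, PAX2 and LHX1 were higher. The 13 brain cell markers summed to 10.6 and 18.2 FPKM in sorted aggregates, against 9.25 and 9.71 FPKM in total RNA, most of it from GAD1 (4.64 and 12.0 FPKM, against 3.96 and 4.34 FPKM) and SYT1 (3.76 and 4.35 FPKM, against 3.49 and 3.65 FPKM). In the same list P2RY12, a gene of microglia, and HBB, a gene of red blood cells, were at 0 in all 4 libraries. The part of brain RNA in the results was not tested.

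The authors' deposited table does not state which way its log2 change runs. The deposited splicing table of the same cells gives inclusion levels of both groups by name. Of 23845 introns with the same coordinates in both tables, 474 were called in the intron table, and 448 of these (94.5%) had the sign of the inclusion difference with minus without aggregates. A positive log2 change was therefore read as higher with aggregates.

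Members were between 20000 and 604457 bases long (median 33777) and together covered 359.6 Mb on 23 chromosomes. Their baseMean in the authors' deposited table ran from 36.0002 to 40442 (median 510), and per 1000 bases of intron the median was 14.7. Most host genes had few: 1812 genes held 1 member, 1244 held 2 to 4, 401 held at least 5 and 59 held at least 10. No member overlapped a listed intron of another gene. Just inside the length rule stood introns of SMC5 (20000 bases, log2 change 0.49) and XPO1 (20002 bases, 0.05), and just outside it introns of SMCO4 (19991 bases, -0.13) and AMOTL1 (19988 bases, -0.01). Just inside the count floor stood introns of CFAP299 (36.0002, log2 change -0.19) and AHNAK (36.0047, -0.49), and just outside it introns of CNKSR2 (35.97, -0.24) and GRAMD2A (35.94, 0.06).

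Most very long introns were slightly lower in cells with aggregates, and the few that passed the test went in both directions. The median log2 change of the members was -0.20 (quartiles -0.33 and -0.05), a fold of 0.868, and 6508 of 7954 (81.8%) were below 0. Over all introns with an adjusted p the median was 0.00 and 49.8% were below 0, so the change is relative to the authors' scaling across introns. At an adjusted p under 0.05 in the authors' deposited table, 84 members in 63 genes were lower with aggregates and 33 members in 31 genes were higher, and no gene had both. These are 1.06% and 0.415% of the members, where 0.146% and 1.5% of all tested introns were called lower and higher (1.65% in either direction). The 84 made up 70.0% of the 120 introns called lower in the table, and the 33 made up 2.68% of the 1231 called higher. At an unadjusted p under 0.05 the authors' deposited table has 1534 members lower and 148 higher. The share over all tested introns at that level was not counted, so these 2 counts have no background beside them. The split between directions depends on the threshold: at an adjusted p under 0.01 it was 8 lower and 14 higher. The split over all tested introns at that threshold was not counted. With 1 intron per gene, that of the highest baseMean, 35 were lower and 29 higher of 3457. Counted by gene, 63 had a lowered and 31 a raised member, so the split also depends on which intron stands for a gene. Lowered members ran from -1.24 to -0.46 (median -0.60) and raised members from 0.45 to 2.04 (median 0.70).

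**Figure D1:**
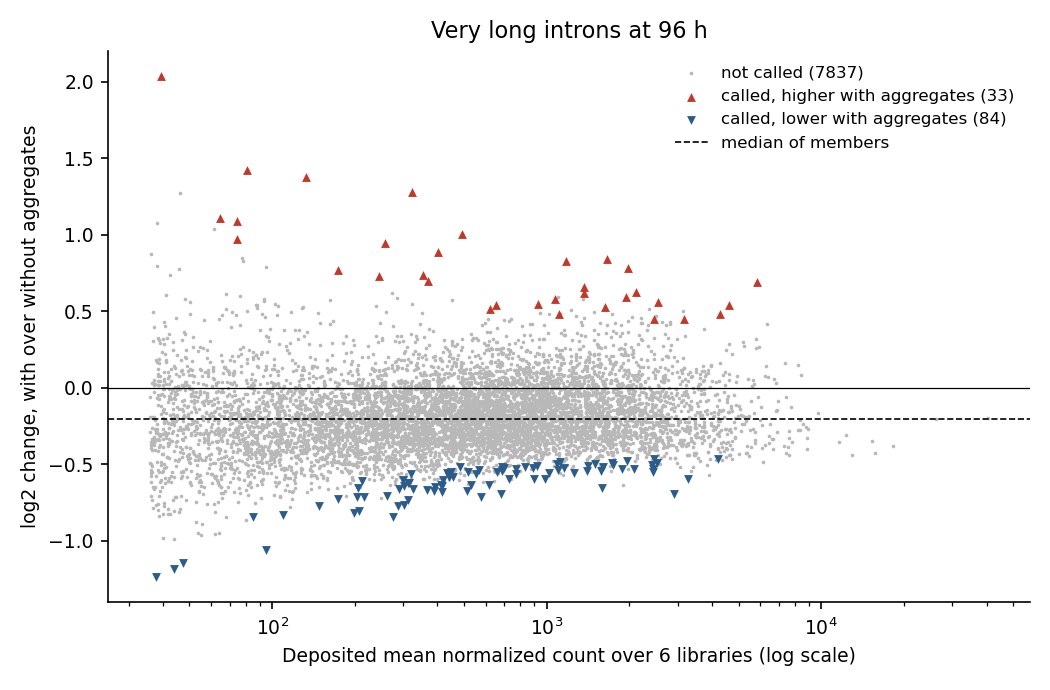
Each point is 1 of the 7954 very long introns in the authors' deposited table, with its mean normalized count over 6 libraries on a log scale (x axis) against its log2 change, with over without aggregates (y axis). The 33 introns called higher (red) are spread widely above 0, the 84 called lower (blue) form a narrow band below about -0.46, and the cloud is centred on the dashed median of -0.20.

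Longer introns had lower log2 changes. Protein-coding introns under 1000 bases had a median log2 change of 0.19 at the same count floor, and 355 of 11563 were called higher and 2 lower in the authors' deposited table. Members of 20000 to 30000 bases had a median of -0.15, with 25 higher and 13 lower of 3277. Members of 30000 to 50000 bases had a median of -0.20, with 7 higher and 19 lower of 2610. The balance turned at about this length, and above it almost only falls were called. Members of 50000 to 100000 bases had a median of -0.27, with 1 higher and 35 lower of 1585. Those of 100000 to 200000 bases had a median of -0.33, with 0 higher and 15 lower of 413, and the 69 members of at least 200000 bases a median of -0.36, with 0 higher and 2 lower. Over the members the Spearman correlation of length and log2 change was -0.26, a description over introns that share libraries and genes. Lowered members had a median length of 59402 bases and raised members one of 24471 bases. Read density moved with the same calls: baseMean per 1000 bases had a median of 9.94 in lowered and 30.8 in raised members. Among the 1591 members with the fewest reads per base, 18 were lower and 5 higher (median log2 change -0.27), and among the 1591 densest 4 were lower and 16 higher (median -0.11). The part of read density in the relation with length was not tested.

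**Figure D2:**
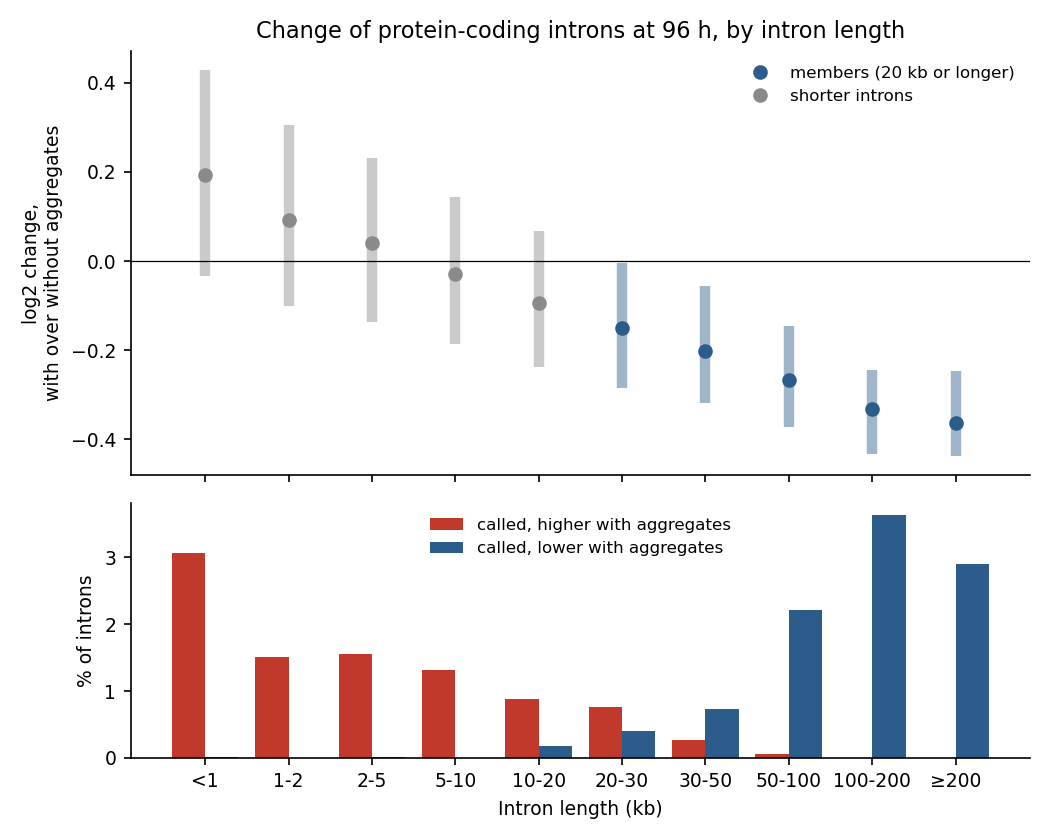
Upper panel, median (point) and quartiles (bar) of the log2 change of protein-coding introns at 96 h, with over without aggregates, by intron length in kb, with members in blue and shorter introns in grey. Lower panel, percent of introns called higher (red) and lower (blue) in the authors' deposited table: the medians go down at each step, and calls lower with aggregates outnumber calls higher from 30 kb on.

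The span of the gene and the length of the intron each went with the change. In genes whose listed introns spanned under 100000 bases, members of 20000 to 30000 bases had a median of -0.09 and shorter introns one of 0.09 in the authors' deposited table. In genes spanning at least 500000 bases, members of at least 100000 bases had a median of -0.36, members of 20000 to 30000 bases one of -0.22 and shorter introns one of -0.17. Shorter introns of host genes were also lower than those of other protein-coding genes, with medians of -0.04 and 0.09. Within 2983 genes that had both kinds, the median of the long introns was below that of the shorter ones in 2065 (69.2%), and the difference had a median of -0.07 (quartiles -0.15 and 0.02). The 2 medians of a gene went together, with a Spearman correlation of 0.72 over genes that share the same 6 libraries. Strand could be read from the splicing table for 6521 members. The 925 that were the first listed intron of their gene had a median of -0.14, with 12 higher and 6 lower. The 5596 later ones had a median of -0.20, with 12 higher and 53 lower, and 372 members that began over 500000 bases from the start of the listed introns had a median of -0.26, with 0 higher and 4 lower.

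**Figure D3:**
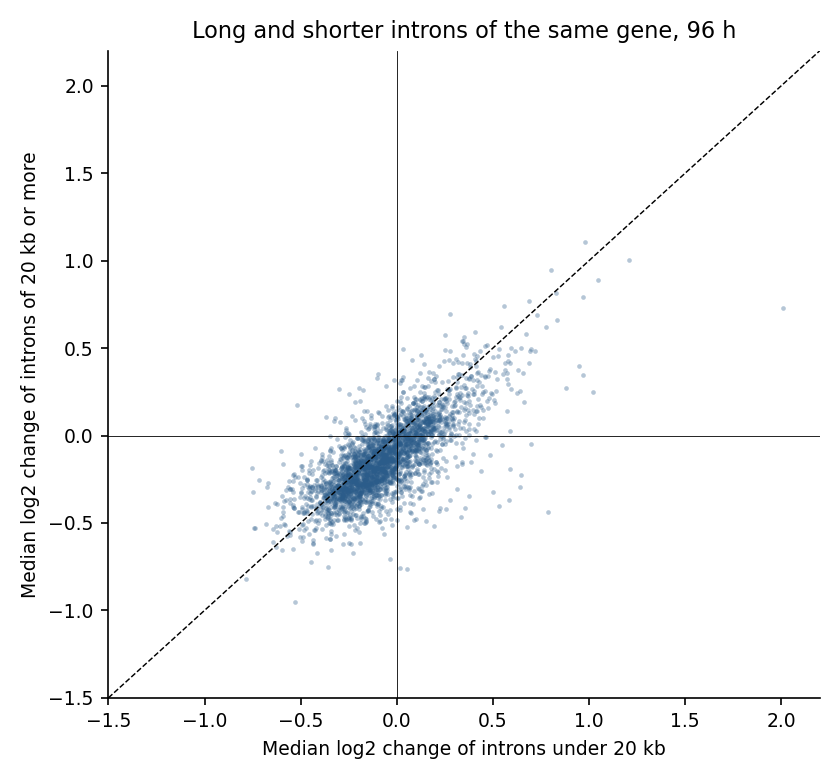
Each point is 1 of 2983 genes, with the median log2 change at 96 h of its introns under 20 kb (x axis) and of its introns of 20 kb or more (y axis), with over without aggregates, and the dashed line marks equal values. More genes lie below the line (2065) than above it, and the point far to the right is ATF3 (2.01 for its shorter introns, 0.73 for its long one).

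The largest fall was in PRUNE2 (chromosome 9, 76713722 to 76764435, hg38), where the authors' deposited table gives a log2 change of -1.24 ± 0.34 (SE) with an adjusted p of 0.0282. From its baseMean and fold, the implied mean normalized count was about 22.4 with aggregates, against about 52.9 without, so this call rests on few reads. KSR2, a scaffold of the Raf-MEK-ERK kinase cascade, had -1.14 ± 0.32 (adjusted p 0.0324) for an intron at chromosome 12, 117860432 to 117889453. SEMA6D, a transmembrane semaphorin that guides axons, had -1.06 ± 0.24 (adjusted p 0.00271) in the authors' deposited table. These 3 falls were in introns with low counts. A 153071-base intron of NRXN3 (chromosome 14, 79314150 to 79467220), which codes for a synaptic adhesion protein of the neurexin family, fell by 0.69 ± 0.17 on the log2 scale (adjusted p 0.00621), with an implied mean of about 2217 with aggregates, against about 3587 without. DEPTOR, an inhibitor of mTOR, had -0.83 ± 0.23 in its last listed intron (adjusted p 0.0266 in the authors' deposited table). ZNF385B, a zinc finger gene, was also among the 10 largest falls with -0.77 ± 0.21 (adjusted p 0.0236), beside introns of SLC35F3, KIF26B and NRXN3. MRPS22, a protein of the small subunit of the mitochondrial ribosome, stood apart from these. Its intron of 53053 bases had -1.18 ± 0.34 (adjusted p 0.0403), while its 7 other tested introns had a median of 0.21 in the authors' deposited table (its other members -0.31 and -0.21), and its implied means were about 26.8 with aggregates, against about 60.7 without.

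Introns of a gene had like values. Of 401 genes with at least 5 members, 264 had all of them below 0 and 5 had all above 0 in the authors' deposited table. The spread within such a gene was small, with a median SD of 0.113 on the log2 scale over its introns, against 0.230 over all members. Several lowered members were found in 15 genes, and 5 of these had at least 3; they are named here after their values were seen. KSR2 had 4 of 7 called (range -1.14 to -0.29), KIF26B, a kinesin-like protein, 3 of 9 (-0.84 to -0.36), NRXN3 3 of 5 (-0.80 to -0.57), OSBPL10, an oxysterol-binding protein relative, 3 of 5 (-0.73 to -0.33) and SLC35F3, a solute carrier, all 3 (-0.85 to -0.52). All members of these 5 genes were below 0, also those that were not called. NRXN3 had in addition 3 shorter introns called lower, with a median of -0.64 over its 6 shorter introns. The shorter introns of KIF26B were nearer 0 (median -0.08 over 2).

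The genes with the most members had few calls or none, and calls were few over all members too (1.06% lower and 0.415% higher). MACROD2, a mono-ADP-ribose hydrolase gene that lies over a common fragile site, held 23 members, of which 22 were below 0 (median -0.41, range -0.61 to 0.30) and none was called in the authors' deposited table. LRP1B, a giant receptor of the LDL receptor family, had all 17 below 0 (median -0.46), ATRNL1 14 of 16 (median -0.28) and CCSER1 all 16 (median -0.33), again with none called. In LRMDA all 16 were below 0 (median -0.41) and 2 were called, an intron of 114710 bases at -0.61 ± 0.17 (adjusted p 0.0302) and one of 152480 bases at -0.56 ± 0.17 (adjusted p 0.0481). The longest members, in ROBO2 (604457 bases, -0.18 ± 0.20), LRRTM4, CNTNAP2, FHIT and CADM2, lay between -0.42 and -0.18 and did not pass the test. Neither did those with the highest baseMean, in SLIT2 (40442, -0.20 ± 0.19), EXT1, FHIT, TTC28 and AUTS2, which lay between -0.42 and -0.20. Their unadjusted p in the authors' deposited table was 0.0086 to 0.285.

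**Figure D4:**
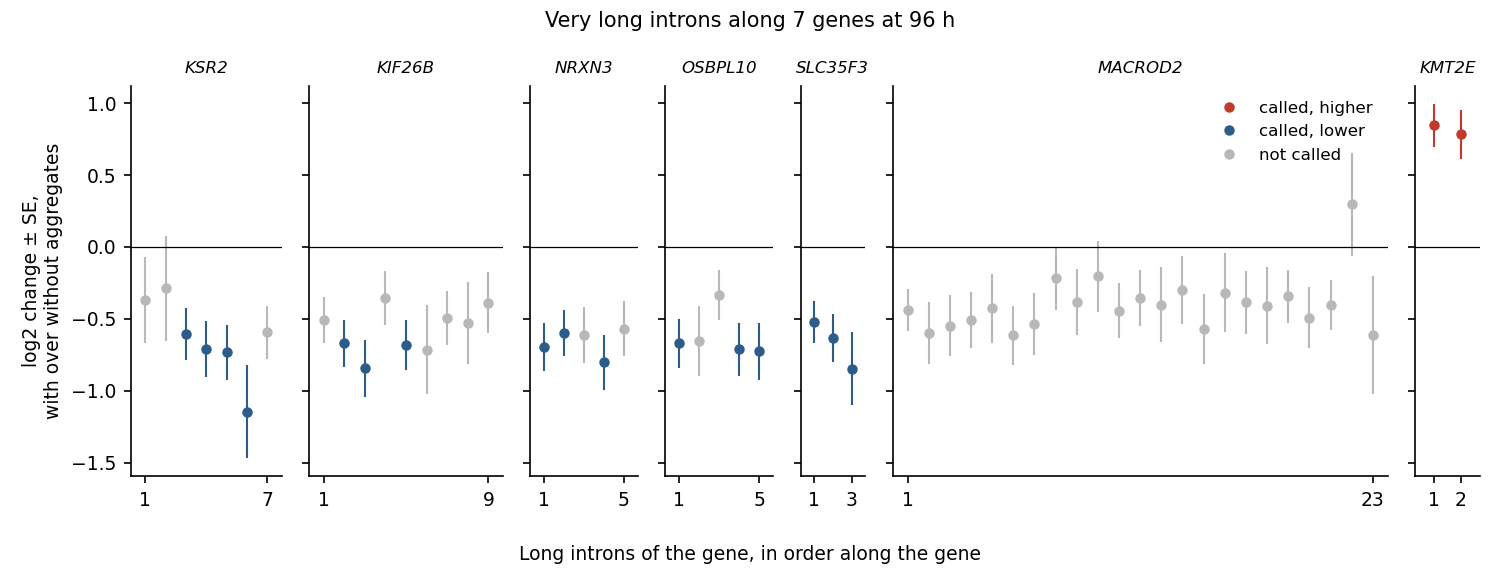
Log2 change ± SE of each very long intron of 7 genes, chosen after their values were seen, at 96 h, with over without aggregates, from the authors' deposited table, in order along the gene (by coordinate where the strand is not known, in KSR2 and SLC35F3), coloured by call. All points of the first 5 genes and 22 of 23 in MACROD2 lie below 0, and both introns of KMT2E lie above 0.5.

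Raised members were of another make. They were shorter, since 25 of 33 were under 30000 bases, where 3277 of all 7954 members were. Shorter introns were called higher too in 14 of the 25 genes that had any tested. Over all host genes, 148 of 25366 shorter introns (0.583%) were called higher, and the number of genes that held them was not counted. KMT2E, a member of the KMT2 family of chromatin regulators, had both of its members called, at 0.85 ± 0.15 for its first intron (chromosome 7, 105014536 to 105038125, adjusted p 1.8e-05) and 0.78 ± 0.17 (adjusted p 0.00117) for another, and 7 of its 14 shorter introns were called higher (median 0.83). The implied mean of its first intron was about 2137 with aggregates, against about 1189 without. HBS1L, a ribosome rescue factor, had 0.66 ± 0.19 (adjusted p 0.0453) and 8 of 14 shorter introns called higher, and PPP2R2A, a regulatory subunit of the phosphatase PP2A, had 0.69 ± 0.17 (adjusted p 0.00621) and 5 of 11. ATF3, a stress-induced transcription factor, had 0.73 ± 0.18 in its only member (adjusted p 0.01), and all 3 of its shorter introns rose, with a median of 2.01. ARHGEF7, an exchange factor for small GTPases, differed from these. Its intron of 21189 bases (chromosome 13, 111244295 to 111265483) had 0.83 ± 0.15 (adjusted p 2.61e-05) in the authors' deposited table, while its other member lay at 0.19 and none of its 23 shorter introns was called (median 0.36).

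Several of the highest log2 changes were in genes that were barely detected at 24 h. FREM3, an extracellular matrix gene, had 1.42 ± 0.26 (adjusted p 3.88e-05) and PDE7B, a cAMP phosphodiesterase, 1.38 ± 0.27 (adjusted p 0.000207) in the authors' deposited table. At 24 h, PDE7B had 0 and 0 FPKM in sorted aggregates, against 0.109 and 0.256 FPKM in total RNA, and FREM3 had 0 and 0.169 FPKM in sorted aggregates, against 0 and 0 in total RNA. SPATA16, known for its role in sperm formation, was listed at 0 in all 4 libraries, yet all 6 of its members were above 0 (0.60 to 1.09) and 2 were called. Genes near these introns were higher in some cases and not in others. In the authors' deposited table, GUSBP5, a pseudogene 72.0 kb from the FREM3 intron, had a median of 1.17 over 4 listed introns, none with an adjusted p, and AL138828.1, an antisense gene near the PDE7B intron, had a median of 0.94 over 2 tested introns, 1 of them called higher. The 15 tested introns of SMARCA5, a chromatin remodeller 96.2 kb from the FREM3 intron, had a median of 0.65, and the 8 tested introns of EIF1AX, a translation initiation factor gene 11.8 kb from the MAP7D2 intron (1.00 ± 0.17, adjusted p 5.29e-06), had a median of 0.81. For GJB7, a connexin gene (1.11 ± 0.27, adjusted p 0.00746), ZNF292 at 45.8 kb had a median of 0.40 over 11 introns, and for CMYA5 (0.95 ± 0.20, adjusted p 0.000982), TENT2 at 4.86 kb had 0.22 over 15. Around SPATA16, the protein-coding genes ECT2 and NLGN1 had medians of 0.21 and -0.29. AC068759.1, a lincRNA that lies closer than NLGN1 (134 kb from 1 of the called introns), had a median of 0.75. That median is over 2 listed introns, of which 1 was tested and 0 were called. Neighbours were looked at after the values were seen, and whether reads of a neighbour enter these introns was not tested. The intron of RPS10-NUDT3 (0.54 ± 0.16, adjusted p 0.0458) belongs to a readthrough transcript that shares sequence with NUDT3 and is uncertain for that reason.

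The gene lists held 605 host genes and 2075 members, and their counts stand beside 1.06% lowered and 0.415% raised over all members, with a median of -0.20. Among chromatin and transcription regulators 8 of 399 members were lowered and 2 raised (both KMT2E), with a median of -0.23 in the authors' deposited table. AFF3, a subunit of elongation complexes, had -0.49 ± 0.14 (adjusted p 0.0298). Among cytoskeleton, adhesion and small GTPase regulators 6 of 424 were lowered and 1 raised (median -0.23), in KIF26B, TLN2, which codes for talin 2 (-0.69 ± 0.16, adjusted p 0.00436), and 1 other gene. Among kinases, phosphatases and signalling adaptors 3 of 448 were lowered and 1 raised (median -0.21), with both calls of PRKAG2, a regulatory subunit of AMPK (-0.56 ± 0.16 and -0.55 ± 0.15, adjusted p 0.0465 and 0.0316), and 1 of PPM1H, a protein phosphatase (-0.50 ± 0.15, adjusted p 0.0447). Vesicle traffic genes had 3 of 318 lowered, all in OSBPL10, and 1 raised, in OSBPL9 (median -0.17). Common fragile site genes, which are among the longest in the genome, had 3 of 277 lowered, 2 of them in DAB1, and 0 raised, and the lowest median of the lists described here (-0.34), with 95.7% of members below 0.

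Other lists lay nearer 0. Ubiquitin ligases and deubiquitinases had 2 of 108 raised, in UBE3C (0.54 ± 0.13, adjusted p 0.00563) and ARIH1 (0.45 ± 0.13, adjusted p 0.0422), and 0 lowered, with a median of -0.08 in the authors' deposited table. RNA-binding and RNA-processing factors (131 members, median -0.13) and DNA replication and repair genes (87 members, median -0.05) had no call in either direction. In the repair list the intron of TOP1, the topoisomerase that relaxes DNA ahead of the polymerase, had 0.52 ± 0.16 at an adjusted p of 0.0536. Genes linked to expression of long genes and introns held only 8 members (median -0.06, none called), but over all 367 of their tested introns 48 were higher and 0 lower (median 0.41). Over all lengths the RNA-binding list had 36 of 1536 introns higher and the repair list 17 of 1468, with 0 lower in both, where 1.5% of all tested introns were called higher and 0.146% lower. The 2 HEK293 markers with a member and the 8 members of brain cell markers were all below 0 and not called. The lists were chosen with earlier results of these data known.

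The splicing table of the same 96 h cells called a change at the junctions of 3 very long introns, in UBE3C, FBRSL1 and ZFR. It gives for each group the share of reads at a branching splice site that use a junction (PSI, estimated by MAJIQ), and a change was called where its deposited probability of a difference of at least 0.2 was at least 0.95. The junctions of 1444 members were listed, in 1701 entries, and the PSI difference was under 0.05 in size in 1534 of these (90.2%). Over the whole series 0.0565% of 237214 junction entries and 0.0983% of 107827 splicing variations were called. Among the members 5 of the 1701 junction entries (0.294%) were called, and 4 of these are the same 2 introns seen from both ends. UBE3C, a ubiquitin ligase, had a PSI of 0.619 with aggregates, against 0.943 without, at the junction of its first listed intron (chromosome 7, 157139339 to 157163809) (difference -0.33, probability 0.973), and the reads of that intron rose. FBRSL1 had a PSI of 0.531 and 0.624 with aggregates, seen from either end of its 20014-base intron (chromosome 12), against 0.988 without. ZFR, a zinc finger RNA-binding protein, had 0.533 and 0.644 with aggregates for its 24125-base intron (chromosome 5), against 0.99 without. The reads inside those last introns had log2 changes of 0.42 ± 0.20 and 0.14 ± 0.14, with adjusted p of 0.366 and 0.781 in the authors' deposited table. Of 2781 host genes listed for splicing, 17 (0.611%) had a called variation anywhere, and of 10743 other genes 53 (0.493%), where 0.518% of all genes had one, so hosts were near the background.

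In the separate 24 h experiment, host genes were compared between RNA of sorted aggregates and total RNA. This comparison did not enter the rule. Of 3457 host genes 3310 matched a unique name, and 2858 were tested because 2 or more of the 4 libraries had 1 FPKM or above. By limma on log2(FPKM + 1) with Benjamini-Hochberg adjustment over all 13185 genes tested, 711 hosts (24.9%) were higher in sorted aggregates and 420 (14.7%) lower, where 22.3% and 19.7% of all genes were called (41.9% in either direction). The median change of hosts was 0.16, against 0.07 over all genes, so rises were near the background of all genes and falls below it. Of the 8760 other protein-coding genes tested, 19.2% were higher and 22.6% lower, with a median of -0.03. Against these, hosts were more often higher and less often lower. Hosts have long transcripts: among protein-coding genes with a longest transcript of at least 5564 bases, 28.8% of 1347 hosts were higher and 10.2% lower in sorted aggregates (median 0.24), and 23.0% and 22.3% of 1558 other genes (median 0.03). At up to 2432 bases the medians were -0.05 for hosts and -0.13 for other genes. The number of calls depends on single libraries, over all genes as among hosts. Leaving out a total library lost nearly all calls, and leaving out an aggregate library added many. With any 1 library left out, the median of hosts lay between 0.13 and 0.17 and that of all genes between 0.04 and 0.09. A filter added after seeing the data kept genes for which even the shallowest library should hold 10 reads. It called 789 hosts higher and 480 lower of 2555, where 2684 of all 10215 genes were higher and 2657 lower. On simulated reads with 200 changed genes, 2.38% of the calls under that filter were false, against 65.8% under the planned one. These shares do not carry over to the data, where far more genes were called.

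Hosts of members lowered at 96 h were more often higher in sorted aggregates at 24 h than all genes were. Of the 52 tested hosts of members lowered at 96 h, 25 (48.1%) were higher in sorted aggregates and 4 (7.69%) lower, with a median of 0.56 and 45 above 0. Of the 20 tested hosts of raised members, 4 (20%) were higher and 7 (35%) lower, with a median of -0.28. The background is again 22.3% and 19.7%. The median of the hosts of raised members was -0.03 without aggregate library 2 and -0.05 with no filter, while that of the hosts of lowered members lay between 0.45 and 0.57 with any 1 library left out. The calls of either set, like nearly all calls over all genes, were lost when a total library was left out. With the filter on expected reads, 2684 of all 10215 genes were higher and 2657 lower. The counts under it were 26 and 3 of 45 hosts of lowered members, and 4 and 7 of 20 hosts of raised ones. These sets differ in level and length too: the median total level was 3.35 FPKM for hosts of lowered and 22.4 FPKM for hosts of raised members, and the median longest transcript 6370 and 5370 bases. Among the 18 hosts of lowered members with at least 5 FPKM in total RNA, 11 were higher and 2 lower (median 0.64). Of all 1958 hosts of that level, 460 were higher and 398 lower (median 0.05). Of all 9099 genes of that level, 1801 were higher and 2364 lower (median -0.08). The part of level and length in the difference between hosts of lowered and of raised members was not tested.

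Single hosts, chosen after their values were seen, went both ways in each set. RGS7, a regulator of G protein signalling, had 9.78 and 12.8 FPKM in sorted aggregates, against 3.11 and 2.64 FPKM in total RNA (limma log2 change 1.66 ± 0.18, adjusted p 0.00969). STOX2 had 9.29 and 8.02 FPKM in sorted aggregates, against 2.80 and 2.71 FPKM in total RNA (1.36 ± 0.14, adjusted p 0.00879). NRXN3 had 10.6 and 11.2 FPKM in sorted aggregates, against 4.95 and 5.09 FPKM in total RNA (0.98 ± 0.11, adjusted p 0.0102). In these 3 hosts of lowered members both aggregate libraries lay above both total libraries. MRPS22, also a host of a lowered member, went the other way. It had 11.7 and 14.8 FPKM in sorted aggregates, against 24.1 and 25.8 FPKM in total RNA (-0.88 ± 0.14, adjusted p 0.0178). Of the hosts of raised members, AMD1, which makes a precursor for polyamine synthesis, had 26.8 and 26.9 FPKM in sorted aggregates, against 49.3 and 51.0 FPKM in total RNA (-0.88 ± 0.07, adjusted p 0.00737). UBE3C had 88.9 and 88.4 FPKM in sorted aggregates, against 60.2 and 58.0 FPKM in total RNA (0.58 ± 0.06, adjusted p 0.00987), with no overlap of the groups. KMT2E had 22.4 and 15.2 FPKM in sorted aggregates, against 22.1 and 21.0 FPKM in total RNA, and its groups overlap.

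**Figure D5:**
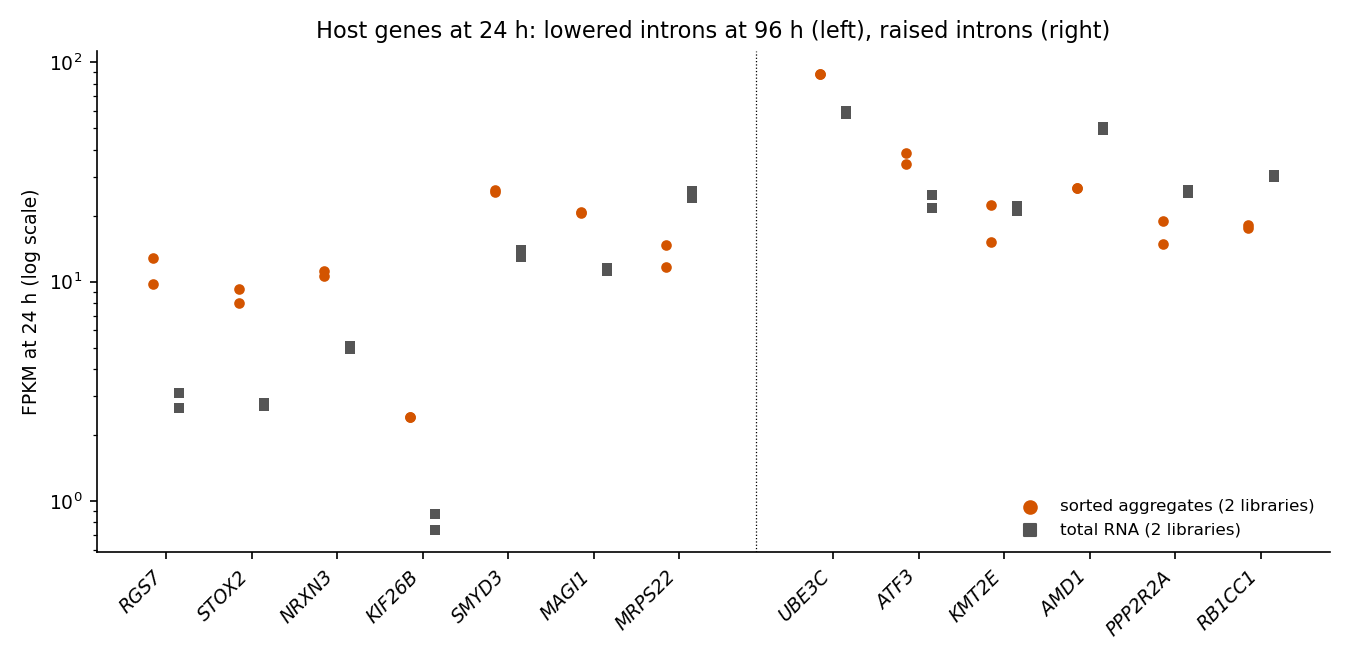
FPKM at 24 h on a log scale in each library of 13 host genes chosen after their values were seen, with sorted aggregates (orange) left of total RNA (grey). Of the 7 hosts of lowered introns on the left, 6 are higher in sorted aggregates and MRPS22 is lower, and of the 6 hosts of raised introns on the right UBE3C and ATF3 are higher and AMD1, PPP2R2A and RB1CC1 lower.

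Over all tested hosts, lower intron changes at 96 h went with higher 24 h changes, with wide scatter. Among the 572 hosts with the lowest median intron change at 96 h, 175 were higher in sorted aggregates at 24 h and 45 lower (median 0.34), and among the 572 with the highest 104 were higher and 149 lower (median -0.04). The Spearman correlation between the 2 changes was -0.22 over 2858 genes. Level moved with both, since the median total level was 4.51 FPKM in the first of these sets and 14.7 FPKM in the other, and the correlation of the intron change with total level was 0.33 over 3310 genes. Introns of highly expressed hosts were nearest 0: in the 662 hosts above 17.5 FPKM the median intron change was -0.04 and 2 genes had a lowered and 11 a raised member, and in the 662 of up to 1.48 FPKM it was -0.25, with 19 and 8 such genes. The sources used here do not say whether the 24 h files count intron reads.

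The largest 24 h changes among hosts were in genes whose long introns were not called at 96 h, as in most host genes. Of 3457 host genes, 63 had a lowered and 31 a raised member. SNTG2, a syntrophin of the gamma type, had 11.5 and 10.1 FPKM in sorted aggregates, against 1.34 and 1.79 FPKM in total RNA (limma log2 change 2.21 ± 0.16, adjusted p 0.007). PPCDC, an enzyme of coenzyme A synthesis, had 51.7 and 51.4 FPKM in sorted aggregates, against 11.0 and 12.2 FPKM in total RNA (2.06 ± 0.09, adjusted p 0.0058). MAD1L1, a spindle checkpoint protein, had 60.2 and 50.6 FPKM in sorted aggregates, against 15.02 and 11.9 FPKM in total RNA (1.965 ± 0.16, adjusted p 0.00737), while its 8 members lay between -0.11 and 0.11 at 96 h. On the other side, HMGN5, a nucleosome-binding protein, had 5.94 and 5.35 FPKM in sorted aggregates, against 63.1 and 64.0 FPKM in total RNA (-3.28 ± 0.09, adjusted p 0.0058). HMGB1, a chromatin protein, had 14.96 and 10.8 FPKM in sorted aggregates, against 59.5 and 59.5 FPKM in total RNA (-2.14 ± 0.17, adjusted p 0.00737), and its 2 members lay at -0.51 and -0.32. XPO1, the main nuclear export receptor, had 24.2 and 22.0 FPKM, against 81.5 and 82.6 FPKM (-1.79 ± 0.08, adjusted p 0.0058). These hosts were picked only among called hosts whose 2 groups did not overlap, so the lack of overlap is no result.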

How the data were processed

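For the 96 h cells the authors deposited a table from iREAD, per its file name, with baseMean (a mean normalized count, used here as signal), log2 change, its standard error, test statistic (a score), p-value and adjusted p per intron, and no value per library. The deposited statistic was the log2 change over its standard error, and the deposited p-value its two-sided normal p. The authors also deposited a splicing table from MAJIQ, with expected PSI (fraction) and probabilities per junction, other values per the file headers. The 24 h files hold FPKM deposited by the authors, per length of the longest transcript. STAR 2.6.0c and the build hg38 are named, per the submitters' processing notes; no counter, annotation or filter is named in the sources used here. Coordinates are hg38, counted from 1.

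Introns were called at the deposited adjusted p under 0.05. The 24 h comparison used limma 3.58.1 (R 4.3.3) with a trend. It was run on log2(FPKM + 1) of every gene that reached 1 FPKM in 2 or more of 4 libraries, with 2 libraries per group, labelled as separate plates. The steps of the FPKM values gave back reads (100% of the values examined were whole within 0.05), used for depth and the added alternatives only. On a gene of 1 kb, 3 reads equal 2.52 and 3.41 FPKM in aggregate libraries and 0.219 and 0.217 FPKM in total libraries, for counting error only. Replicates differed by a mean squared z of 2.87 (aggregates) and 2.25 (total). On simulated reads for 13244 genes, 200 of them changed, the planned fit found 60% and 66.0% of log2 changes of -2 and 2, with 65.8% false among its calls. Under the filter on expected reads, over 10198 genes, these values were 100%, 100% and 2.38%. The false shares hold for 200 changed genes and do not carry over to the data, where far more genes were called.

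Named introns were the 10 largest rises and falls among called members, the 5 longest, the 5 with the highest baseMean, members of the 5 genes with most of them, up to 4 per list and those beside each threshold; named hosts were up to 10 per direction with the largest changes, groups apart and at least 5 FPKM in the higher group. The text gives a part of these and says where others were chosen later. Members and lists were chosen with earlier results of these data known. Mouse libraries were not used here, and results for a few genes are not reported here.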

Additional observations from a re-analysis of the deposited data

How the results depend on the processing

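Of the 96 h settings, the median change of the members kept its sign in all 5 (-0.29 to -0.15). An adjusted p under 0.01 left 14 members raised and 8 lowered, and adjustment over every intron with a p gave 21 and 31. For neither setting were the calls over all introns counted. With introns of at least 10000 bases 109 were raised and 99 lowered, and of at least 50000 bases 1 and 52. With 1 intron per gene, that of the highest baseMean, 29 were raised and 35 lowered. Floors of 10 and 100 on baseMean gave 84 and 79 lowered. No intron with a baseMean below 35.2 has an adjusted p, so the floor of 10 could hardly add a call and does not test the floor. At 24 h the median of hosts stayed between 0.08 and 0.19 (lowest with quantile normalization) over 13 settings, where all genes had 0.07 in the planned fit and -0.002 after median centring. Leaving out 1 library gave 0 to 1168 hosts higher and 0 to 773 lower: 0 without total replicate 1 or 2, and 1168 and 1167 higher (773 and 748 lower) without aggregate replicate 1 or 2. A lone library left in a group is assumed to vary like the other group. In the fit without total replicate 1, 376 hosts were higher and 235 lower at an unadjusted p under 0.05, and without replicate 2, 365 and 216. The replicate block gave 447 hosts higher and 290 lower, where 2067 of all 13185 genes were higher and 2073 lower. Deviations of same-numbered libraries had a correlation of 0.06, so the numbers are not taken as pairs. Median centring gave 592 higher and 490 lower hosts, against 711 and 420. Over all 13185 genes it gave 2499 higher and 2918 lower, against 2935 and 2595. Added after seeing the data, voom on recovered reads gave 982 hosts higher and 539 lower of 2555, where 3190 of all 10215 genes were higher and 2903 lower. A probability of at least 0.5 gave 77 host genes with a splicing variation, against 17. Other genes were not counted at that probability. No paired analysis was possible at 96 h because the tables hold no value per library. The depth of the aggregate libraries limits the 24 h values of weakly expressed hosts, and the 96 h values cannot be refitted.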

Other observations

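Introns of at least 20000 bases in genes of other types, mostly non-coding, were also lower with aggregates at 96 h. The 928 of them above the same count floor had a median log2 change of -0.23 in the authors' deposited table, with 757 (81.6%) below 0, 8 called lower and 12 higher. Their baseMean per 1000 bases had a median of 4.21, against 14.7 for the protein-coding members. By chromosome, the median of the protein-coding members lay between -0.23 (chromosome 12) and -0.09 (chromosome 19, 69 members).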
